A study of Mus musculus with 3 samples.

Results

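TBX5 binding was examined at 10 endothelial and angiogenic genes in the fetal mouse lung: the ligand genes Vegfa and Angpt1, the receptor and co-receptor genes Flt1, Kdr, Flt4, Tek, Nrp1 and Eng, and the adhesion genes Pecam1 and Cdh5. A TBX5 peak was given to a gene if its summit lay inside the gene body, or if the nearest end of any protein-coding gene, within 100 kb, was an end of that gene. By this rule 41 of the 28381 peaks in the deposited list belonged to the 10 genes. The chromatin came from embryos of the CD-1 mouse strain at E14.5, whose whole lungs were cross-linked and sonicated. There were 2 libraries precipitated with an antibody to TBX5 (1 lung each) and 1 library of input chromatin. No genotype or treatment is named for any of the 3 libraries. All 3 titles name lung, but the source field gives heart for the input and for 1 of the ChIP libraries, number 2.

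A single peak list was deposited for the series, without values of its own for any library. It gives no spread between the 2 ChIP libraries and no depth, so no test over samples was possible. Each peak has a fold enrichment (ChIP signal at the summit over local background) and a −log10 q, both from the authors' peak caller and used here as descriptions within 1 list. The 5000 peaks ranked first by −log10 q (21.35 at the last of them) are called strong, and the strongest peak of a gene is the one with its highest −log10 q. The lung holds many cell types, so a signal in a few cells and a weaker signal in many cells cannot be told apart, and no peak can be given to a cell type.

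In the growing lung, blood vessels form within the mesenchyme, the connective tissue around the branching airways in which TBX5 is known to act. VEGF-A is a secreted growth factor that drives the growth of endothelial cells, the lining of vessels, mainly through the tyrosine kinase receptor VEGFR2 (Kdr), while VEGFR1 (Flt1) binds it tightly and can act as a decoy. Angiopoietin-1 (Angpt1), made largely by mesenchymal and perivascular cells, activates the endothelial receptor TIE2 (Tek) and stabilises vessels. VEGFR3 (Flt4) serves lymphatic growth, neuropilin-1 (Nrp1) binds VEGF-A and semaphorins as a co-receptor, and endoglin (Eng) is a co-receptor for TGF-beta family ligands. PECAM-1 and VE-cadherin (Cdh5) hold endothelial cells together.

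Peaks were spread unevenly over the 10 genes. Angpt1 had 15 peaks, Cdh5 7, Nrp1 6, Vegfa 4, Flt1 4, Pecam1 3 and Tek 2, and Kdr, Flt4 and Eng had 0. A strong peak was present at Angpt1, Vegfa, Tek, Flt1 and Cdh5, 1 at each gene. In all, 7 of the 10 genes had a peak and 5 had a strong one, against 41.7% and 11.9% of 21631 protein-coding genes by the same rule. Several of the 10 genes are long or have distant neighbours. Among genes whose stretch (the sequence in which a summit would be given to the gene) was within 10% of that of the gene in question, the share with a strong peak averaged 26.2% over the 10 genes, from 7.44% for Flt4 to 55.1% for Angpt1. The share with any peak averaged 64.8%, which is near the 7 of 10 seen here.

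**Figure D1:**
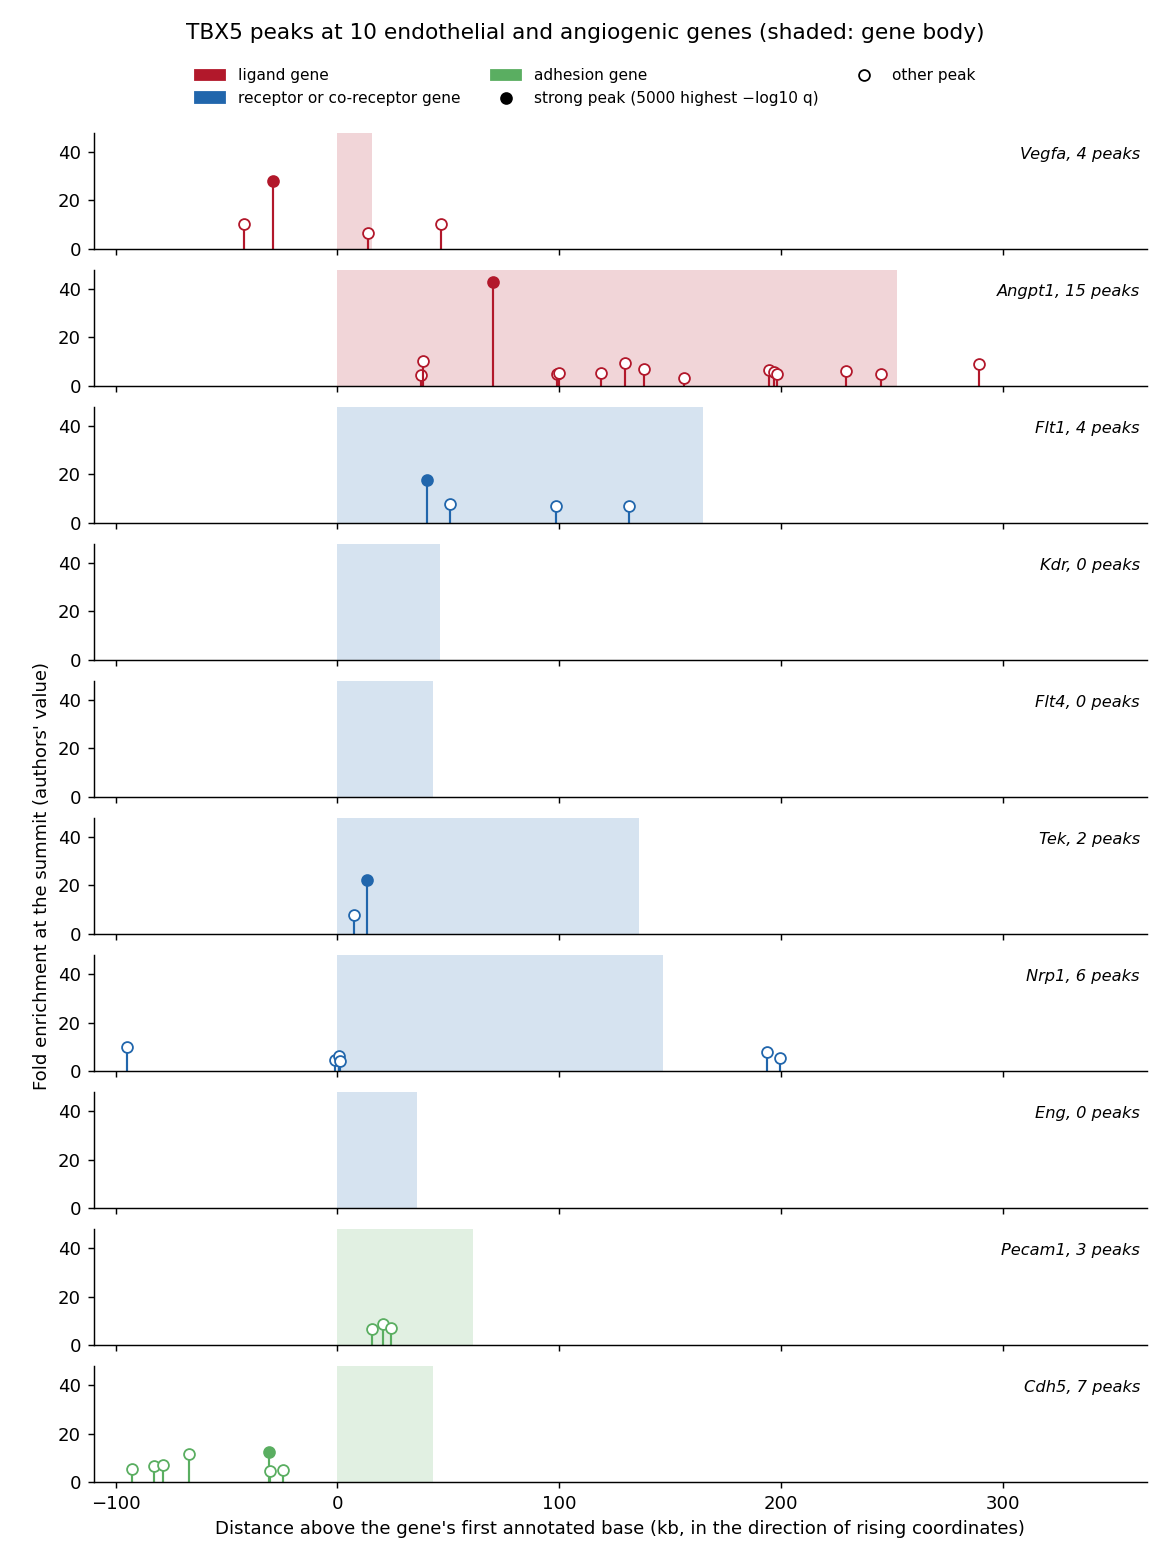
Position and fold of the 41 peaks, one row per gene, with kb above the first annotated base of the gene on the x axis and fold enrichment on the y axis. Shading marks the gene body and filled circles strong peaks: Angpt1 peaks run through the gene body, all 7 Cdh5 peaks lie outside it, and Kdr, Flt4 and Eng rows are empty.

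As a group the peaks were close to the whole list in height. Their median fold was 6.81 (range 3.30 to 42.9), against 6.27 in the whole list (range 1.86 to 99.0). Strong peaks were 5 of the 41 (12.2%, exact 95% binomial interval 4.08 to 26.2%, counting error only), against 17.6% of the list. Peaks of at least 10-fold were 9 of the 41 (22.0%, interval 10.6 to 37.6%), against 21.2% of the list. Their median width was 282 bp, against 291 bp. Of the 41 summits, 26 (63.4%) lay inside the gene, 14 of them in Angpt1. Of all 28381 summits, 52.2% lay inside a protein-coding gene, but that total also holds summits too far from any gene to be given to one. Only 1 of the 41 (2.44%, interval 0.0617 to 12.9%) had an end of a protein-coding gene within 1 kb, against 17.6% of the list.

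Gene starts were read from the RefSeq promoter windows (build GRCm38.p6, 250 bases before to 50 after a start), which matched 7 of the 10 genes and gave Vegfa a pair of starts. Pecam1, Cdh5 and Angpt1 have no entry there. A peak overlapped 1 of these 8 windows, that of Nrp1, and 17.6% of 21045 windows of protein-coding genes were overlapped by a peak. The Nrp1 window is shown with the 154 bases inside the peak in capitals (chr8:128358823-128359122, plus strand). The window at the upstream start of Vegfa (chr17:46032328-46032627, minus strand), which no peak reached, is shown beside it with its single match among the searched motifs, a GATA site, in capitals. The windows of Tek (chr4:94739039-94739338, plus strand), whose GATA site match is in capitals, and of Kdr (chr5:75978406-75978705, minus strand) belong to the TIE2 gene, with a strong peak inside the body, and to the VEGFR2 gene, with none.

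Nrp1: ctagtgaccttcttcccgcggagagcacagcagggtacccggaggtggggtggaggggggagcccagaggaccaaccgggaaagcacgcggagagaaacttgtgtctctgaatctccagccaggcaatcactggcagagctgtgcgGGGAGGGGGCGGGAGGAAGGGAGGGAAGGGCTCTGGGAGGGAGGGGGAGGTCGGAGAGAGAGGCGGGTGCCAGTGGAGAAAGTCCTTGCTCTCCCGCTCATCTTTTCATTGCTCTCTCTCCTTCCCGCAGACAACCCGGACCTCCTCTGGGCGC

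Vegfa: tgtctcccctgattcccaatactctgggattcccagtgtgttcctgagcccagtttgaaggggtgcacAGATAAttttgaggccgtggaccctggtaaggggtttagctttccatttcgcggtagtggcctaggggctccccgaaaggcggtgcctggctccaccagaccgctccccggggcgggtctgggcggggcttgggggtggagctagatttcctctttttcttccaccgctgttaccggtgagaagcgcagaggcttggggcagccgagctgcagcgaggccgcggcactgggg

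Tek: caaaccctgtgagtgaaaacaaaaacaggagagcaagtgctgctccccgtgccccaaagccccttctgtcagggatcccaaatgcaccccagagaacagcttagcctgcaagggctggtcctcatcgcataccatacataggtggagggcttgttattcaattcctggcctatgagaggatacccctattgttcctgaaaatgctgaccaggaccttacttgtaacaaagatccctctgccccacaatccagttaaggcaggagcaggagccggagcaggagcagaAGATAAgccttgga

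Kdr: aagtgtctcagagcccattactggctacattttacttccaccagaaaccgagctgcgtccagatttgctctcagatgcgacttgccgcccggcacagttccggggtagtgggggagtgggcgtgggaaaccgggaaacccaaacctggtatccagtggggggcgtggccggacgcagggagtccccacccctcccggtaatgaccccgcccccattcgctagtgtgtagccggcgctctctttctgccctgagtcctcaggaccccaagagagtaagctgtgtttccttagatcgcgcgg

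The motifs searched on both strands were the T-box half-site AGGTGT, its longer form AGGTGTGA, which contains it, the ETS site CCGGAAG, the hypoxia response core ACGTG and the GATA site AGATAA. They are present in 12.8%, 1.16%, 11.7%, 21.1% and 9.68% of the 21045 windows, in that order. Neither T-box form nor the ETS site was found in the 8 windows of these genes. The matches were the GATA sites of Vegfa and Tek shown above and 1 hypoxia response core, 211 bases before the downstream start of Vegfa (position -211). The Nrp1 window had 14 CpG dinucleotides, where windows overlapped by a peak had a median of 26 and the other windows a median of 9. The windows of these genes without a peak had from 3 (Tek) to 29 (Flt1), both below and above Nrp1. A match or its absence describes these 300 bases alone.

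Of the ligand genes, Angpt1 carried the highest peak of all 10 genes. The gene lies on chromosome 15 from 42424667 to 42676977 (252.3 kb), and its strongest peak, from 42494119 to 42495491, was 1373 bp wide, the widest of the 41. Its fold was 42.9 and its −log10 q 131, rank 218 of 28381, and it lay 70.3 kb inside the gene from the nearer end. The next highest Angpt1 peaks had 10.4, 9.42, 9.02 and 7.06-fold enrichment, and the other 10 ran from 3.30 to 6.60-fold, so 1 peak stood far above the rest. In all 14 of the 15 peaks lay inside the gene, and the remaining one, of 9.02-fold, lay 37.2 kb above its last base, inside the lncRNA gene Gm41314. The median fold of the 15 was 5.49, below that of the list. The neighbouring protein-coding genes are distant, Abra at 555 kb and Rspo2 at 344 kb.

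As many as 15 peaks were found at 135 protein-coding genes (0.624%), Angpt1 included. At the average density of the list, 1.29 peaks per 100 kb, the 452.3 kb stretch of Angpt1 would hold 5.85. Among the 187 other genes of similar stretch the median was 6 peaks, and 18 (9.63%) had 15 or more. The density at Angpt1 was 3.32 per 100 kb (exact 95% Poisson interval 1.86 to 5.47, counting error only). Low values are coarse: the same fold and −log10 q are shared by 848 peaks of the list for the 3 Angpt1 peaks of 4.71-fold, and by 1048 for its 2 peaks of 5.18-fold. Only 5 of the 15 were among the upper 14190 peaks of the list by −log10 q.

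Vegfa, on chromosome 17 from 46016993 to 46032377, had 4 peaks around a gene of 15.4 kb. The strongest, from 45987955 to 45988370, had 28.0-fold enrichment and a −log10 q of 82.1 (rank 627). It lay 28.9 kb beyond the end of the gene, 37.0 kb downstream of the nearer start. A peak of 10.1-fold lay further in the same direction, 42.4 kb from the gene, and another of 10.1-fold lay 31.5 kb upstream of the gene. The fourth, from 46030521 to 46031377 (857 bp wide, 6.67-fold), lay inside the gene, 1.73 kb downstream of the upstream start. All 4 peaks were above the median fold of the list, and 3 of the 4 were above 10-fold. The nearest neighbour, Mrps18a, is 78.6 kb away. Among 1049 genes of similar stretch (154.7 kb for Vegfa) the median was 1 peak, and 19.7% had 4 or more.

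Among the receptor genes, Tek and Flt1 each had 1 strong peak inside the gene. Tek, on chromosome 4 from 94739086 to 94874976, had peaks of 22.1-fold (94752436 to 94752893, −log10 q 53.5, rank 1421) and 7.82-fold (94746239 to 94746631, −log10 q 13.9). They lay 13.3 and 7.18 kb downstream of the start, 6.15 kb apart and near the beginning of a gene of 135.9 kb. Flt1, on chromosome 5 from 147561604 to 147726438, had 4 peaks, all inside the gene of 164.8 kb. The strongest (147601529 to 147602186) had 17.6-fold enrichment and a −log10 q of 51.2 (rank 1545), and lay far from the start, 124 kb downstream of it. The others, of 7.80, 6.81 and 7.06-fold, lay 114, 65.9 and 33.0 kb downstream of the start. The 6.81-fold peak also lay inside the lncRNA gene Gm35383. Counts of 4 or more were found in 36.5% of genes with a stretch like that of Flt1, and 2 or more in 42.6% of those like Tek.

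Nrp1, on chromosome 8 from 128358591 to 128505476, had 6 peaks, none of them strong. The peak over its promoter window (128358969 to 128359237) had 6.01-fold enrichment and its summit lay 41 bp from the start. On either side of it, peaks of 4.56 and 4.29-fold lay 1774 bp upstream and 854 bp downstream of the start. A group of 3 low peaks thus lay around the start of the gene, and only the middle one spanned it. The remaining 3 were all outside the body. The highest, of 9.89-fold, lay 94.9 kb below the gene, inside the lncRNA gene A930035F09Rik, and those of 8.01 and 5.18-fold lay 47.0 and 52.8 kb above its last base. No summit lay in the body of Nrp1 more than 1.34 kb from its first base. When the limit was widened to 1 Mb, Nrp1 gained 3 peaks, including a strong one of 27.7-fold 333 kb away (chromosome 8 from 128024883 to 128025505).

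Kdr, Flt4 and Eng had 0 peaks, and still 0 under 9 other settings, most of which could only remove peaks. A limit of 1 Mb, or assignment by the whole peak rather than the summit, could have added a peak and did not. Because Flt4 and Eng have close neighbours, the wider limit could add a peak only at Kdr. Kdr, on chromosome 5 from 75932827 to 75979072, stood in the longest empty stretch, 226.8 kb, where the average density would give 2.93 peaks. Even so, 189 of 709 genes of similar stretch (26.7%) also had none. The closest summit lay 147 kb from Kdr, with 6.60-fold enrichment, and no protein-coding gene end was within 100 kb of it. Flt4, on chromosome 11 from 49609679 to 49652739, and Eng, on chromosome 2 from 32646595 to 32682669, have close neighbours and short stretches of 58.2 and 52.6 kb, where 59.2% and 60.1% of similar genes had none. The closest summit to Flt4 lay 59.4 kb away and was given to Cnot6 (5.87-fold), and that to Eng lay 8.41 kb away and was given to Ak1 (4.89-fold). A peak list holds only regions past the authors' threshold, so a count of 0 does not show that TBX5 was absent.

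The adhesion genes differed in where their peaks lay. Pecam1, on chromosome 11 from 106654213 to 106715281, had 3 peaks, all inside the gene within 8.14 kb of each other. They had 6.61, 8.65 and 7.06-fold enrichment, none strong. The middle one (106674650 to 106674994) had a −log10 q of 18.8 and ranked 5807. Cdh5, on chromosome 8 from 104101613 to 104144504, had 7 peaks, none inside the gene and all below its first base, 24.8 to 92.6 kb away. The strongest (104070463 to 104070904, 12.3-fold, −log10 q 27.3, rank 3745) lay 31.0 kb from the gene, and the second (104034306 to 104034591, 11.4-fold, −log10 q 20.9, rank 5249) 67.2 kb from it, just below the strong class. The others had 6.98, 6.49, 5.18, 4.85 and 4.67-fold enrichment.

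The Cdh5 peaks were given to Cdh5 because the next protein-coding gene in that direction, Cdh11, is 1320 kb away. When lncRNA genes and pseudogenes could also take a peak, all 7 went to them and Cdh5 had 0. Of the 7, 3 lay inside the lncRNA gene Gm32728 and 1 inside the pseudogene Gm8748. The stretch beyond the 100 kb limit was also filled: with a limit of 1 Mb, Cdh5 had 21 peaks, and the 14 added ones included 4 strong peaks, up to 36.8-fold at 600 kb (chromosome 8 from 103501151 to 103502017). Just inside the limit was a peak of 5.18-fold at 92.6 kb, and just outside it one of 7.07-fold at 137 kb. Over the 10 genes, 22 further peaks lay between 100 kb and 1 Mb.

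**Figure D2:**
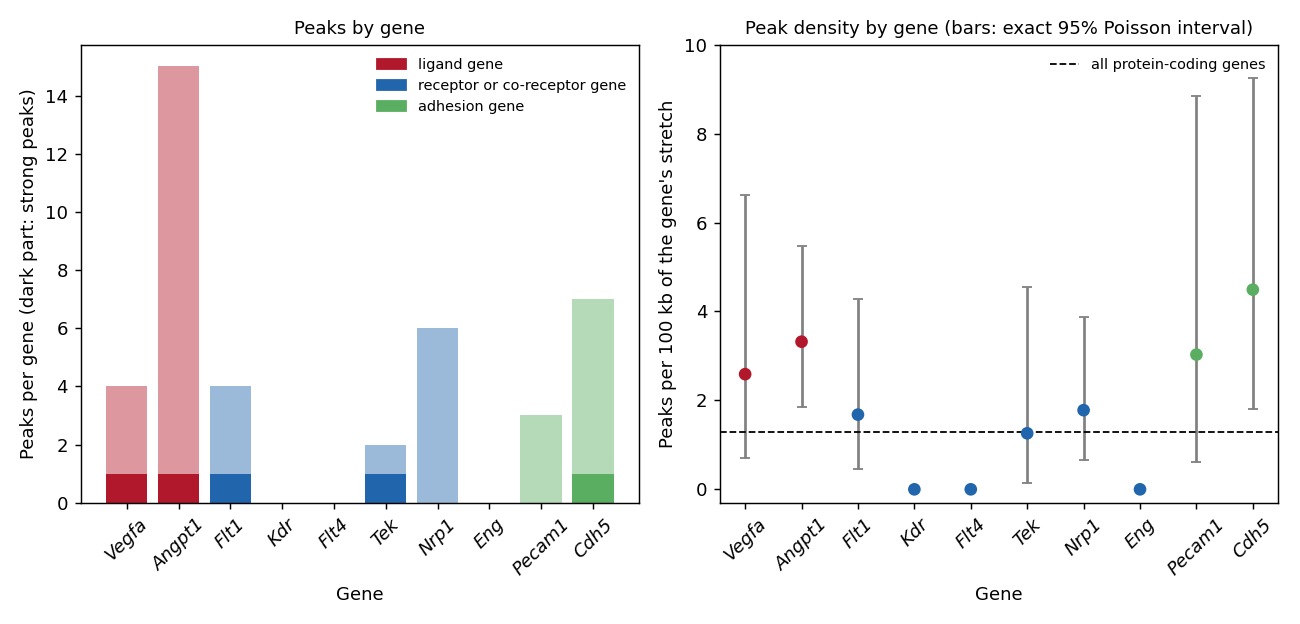
Peaks per gene (left, dark part strong) and peaks per 100 kb of the stretch of each gene (right, with exact 95% Poisson intervals for genes with a peak), ligand genes first, then receptor and adhesion genes. The dashed line is the average over all protein-coding genes, 1.29 per 100 kb: both ligand genes, both adhesion genes and the receptor genes Nrp1 and Flt1 lie above it, Tek lies just below it, and Kdr, Flt4 and Eng are at 0.

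Among the 10 genes, the 2 ligand genes had more peaks than the 6 receptor genes, both in number and per length. Vegfa and Angpt1 together had 19 peaks in 607.0 kb, a density of 3.13 per 100 kb (exact 95% Poisson interval 1.88 to 4.89), and the 6 receptor genes had 12 peaks in 1072.2 kb, a density of 1.12 (0.578 to 1.95). By gene the densities were 2.59 at Vegfa and 3.32 at Angpt1, against 1.78 at Nrp1, 1.68 at Flt1, 1.26 at Tek and 0 at Kdr, Flt4 and Eng. Such densities are common: of all protein-coding genes, 19.2% were at least as dense as Vegfa and 14.9% as Angpt1. The shares were 26.2% for Nrp1, 27.2% for Flt1 and 31.7% for Tek. Both ligand genes and 2 of the 6 receptor genes had a strong peak, against 11.9% of all protein-coding genes. Among genes of similar stretch that share was 55.1% for Angpt1 and 21.1% for Vegfa. For the receptor genes it ran from 7.44% (Flt4) to 44.9% (Nrp1). The highest fold was 42.9 and 28.0 at the ligand genes, against 22.1, 17.6 and 9.89 at the receptor genes with a peak. The typical peak did not follow this order, with a median fold of 6.60 at the ligand genes and 7.43 at the receptor genes. Strong peaks were 2 of 19 (10.5%) at ligand genes and 2 of 12 (16.7%) at receptor genes.

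The order also did not extend to every endothelial gene. The adhesion genes had 10 peaks in 255.0 kb, a density of 3.92 per 100 kb (1.88 to 7.21), against 3.13 at the ligand genes. Cdh5, at 4.49, was above both ligand genes, and Pecam1, at 3.03, lay between Vegfa (2.59) and Angpt1 (3.32). All Cdh5 peaks lay outside the gene, and Cdh5 had 0 when all annotated genes competed for peaks. Of the further vascular genes described below, Plxnd1 and Nrp2, on the receptor side, had 12.9 and 5.29 per 100 kb, above both ligand genes. The receptor genes Tie1 and Acvrl1 had 0. The ligand total rested on Angpt1, which held 15 of the 19 peaks, and the interval of Vegfa alone, 0.705 to 6.62, included the density of every receptor gene with a peak. Counting only the upper 14190 peaks by −log10 q gave 9 for the ligand genes and 8 for the receptor genes, and peaks of 10-fold or more numbered 5 and 2. The comparison is between genes of 1 list, in which neighbouring peaks are not independent, and it was not tested.

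**Figure D3:**
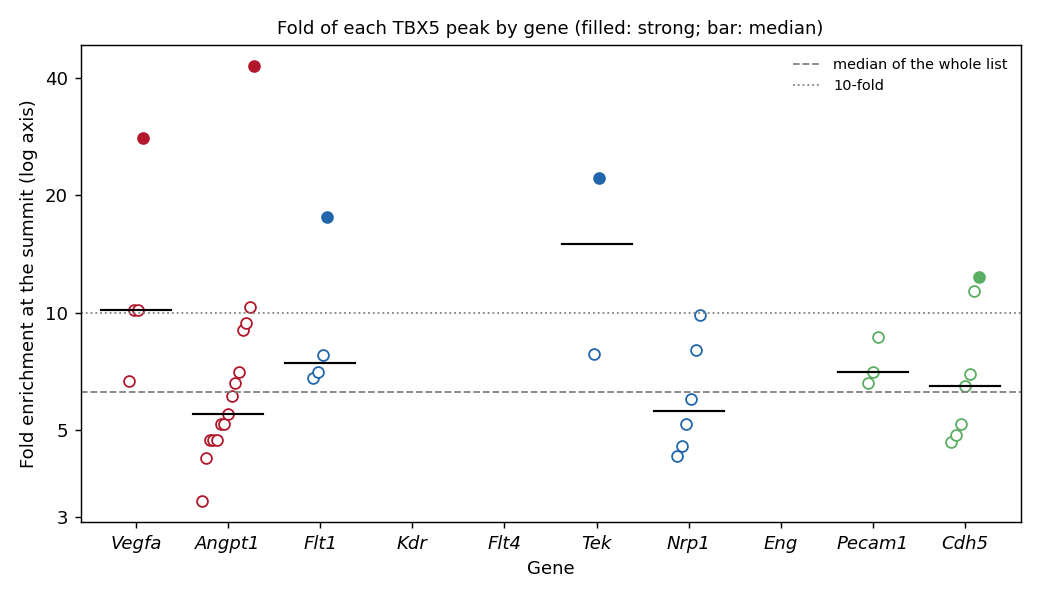
Fold enrichment of each of the 41 peaks by gene on a log axis, with filled circles for strong peaks and a short bar for the median of the gene. The dashed line is the median of the whole list, 6.27: single high peaks stand apart at Vegfa, Angpt1, Flt1 and Tek, while Nrp1 and Pecam1 have none over 10-fold.

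A further 50 genes of vessels and their supporting cells, listed by function, had 128 peaks, 22 of them strong. A peak was present at 27 (54.0%) and a strong peak at 12 (24.0%), against 41.7% and 11.9% of all protein-coding genes. Among genes with a stretch within 10% of that of each of the 50, the shares averaged 46.0% and 13.9%. No strong peak was present at the 4 other VEGF ligand genes or the 3 other angiopoietin and TIE genes. The share over all protein-coding genes was 11.9%, so 0 in groups this small says little. Of the VEGF ligand genes, Vegfc had 3 peaks (9.41-fold at the strongest), Vegfd 2 (10.8-fold), Pgf 2 (4.31-fold) and Vegfb 0, none strong. Angpt2, whose product can oppose that of Angpt1 at TIE2, had 11 peaks, none strong and none above 8.37-fold, Angpt4 had 1 of 4.46-fold, and Tie1, the orphan receptor beside TIE2, had 0. The genes of the ALK1 arm, which works with endoglin, had none: Acvrl1, the receptor, and Gdf2 and Bmp10, its ligands, had 0 peaks each. Their stretches were short, 35.4, 11.8 and 37.6 kb, as were those of Tie1 (44.0 kb) and Vegfb (6.3 kb). All are below the 52.6 kb of Eng, where 60.1% of similar genes had no peak.

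Plxnd1 and Nrp2, listed as receptors and co-receptors among these 50, both had strong peaks, against 11.9% of all protein-coding genes. The co-receptor genes Nrp1 and Eng, with 6 and 0 peaks, had no strong peak. Plxnd1, which encodes plexin-D1 of endothelial cells, carried 7 peaks, 2 of them in the strong class. The strongest (chromosome 6 from 115956714 to 115957691) had 41.4-fold enrichment and a −log10 q of 169, above any peak of the 10 genes by −log10 q. Nrp2, the paralogue of Nrp1 that binds VEGF-C, had 13 peaks, 2 strong, up to 22.6-fold (chromosome 1 from 62682438 to 62682826). The strongest peak of Nrp1 itself had 9.89-fold enrichment. A peak that was not strong overlapped the promoter windows of Nrp2, Plxnd1 and Nrp1, and none overlapped that of Eng. Of all windows of protein-coding genes, 17.6% were overlapped by a peak.

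Among 11 transcription factor genes of endothelial and blood cells, 5 (45.5%) had a peak, against 41.7% of all protein-coding genes. The same 5 had a strong peak, against 11.9%. They were the ETS family genes Ets1 (10 peaks, 3 strong, 25.8-fold at the strongest), Ets2 (8 peaks, 2 strong, 18.4-fold), Erg (7 peaks, 1 strong, 13.7-fold) and Fli1 (4 peaks, 1 strong, 11.4-fold), and the bHLH gene Lyl1 (4 peaks, 1 strong, 9.10-fold). Ets1 and Fli1, and likewise Erg and Ets2, are neighbours on their chromosomes, so these genes are not independent. Tal1, Sox7, Sox17, Sox18, Gata2 and Hhex had 0. Stretches ran from 52.4 to 314.8 kb for the 5 genes with a peak and from 11.2 to 147.3 kb for those with 0, and this group was not matched for stretch. Of 13 genes of junctions and the endothelial surface, 7 (53.8%) had a peak. Only Egfl7, a secreted factor of endothelial cells, had a strong one (1 peak, 12.9-fold), a share of 7.69%, against 11.9% of all protein-coding genes. Cldn5, the tight junction gene, had 1 peak of 11.0-fold that ranked 5004, tied in −log10 q with the last strong peak.

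Of the lymphatic genes, Ccbe1, a secreted protein needed for the processing of VEGF-C, had 24 peaks, 5 of them strong and 32.2-fold at the strongest, in a stretch of 345.5 kb. Prox1, the transcription factor of lymphatic endothelium, had 9 peaks, 1 strong, of 15.9-fold, and Lyve1, a hyaluronan receptor, had 0. S1pr1, an endothelial receptor of sphingosine-1-phosphate, had 2 peaks, 1 strong (14.8-fold), and Apln and Aplnr had 0. Among 8 pericyte genes, Pdgfrb, the receptor for PDGF-B, had 2 peaks, both strong and up to 19.4-fold. No other had a strong one, so the share was 12.5%, against 11.9% of all protein-coding genes. Abcc9, a potassium channel subunit, had 2 peaks, with 10.4-fold at the strongest.

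**Figure D4:**
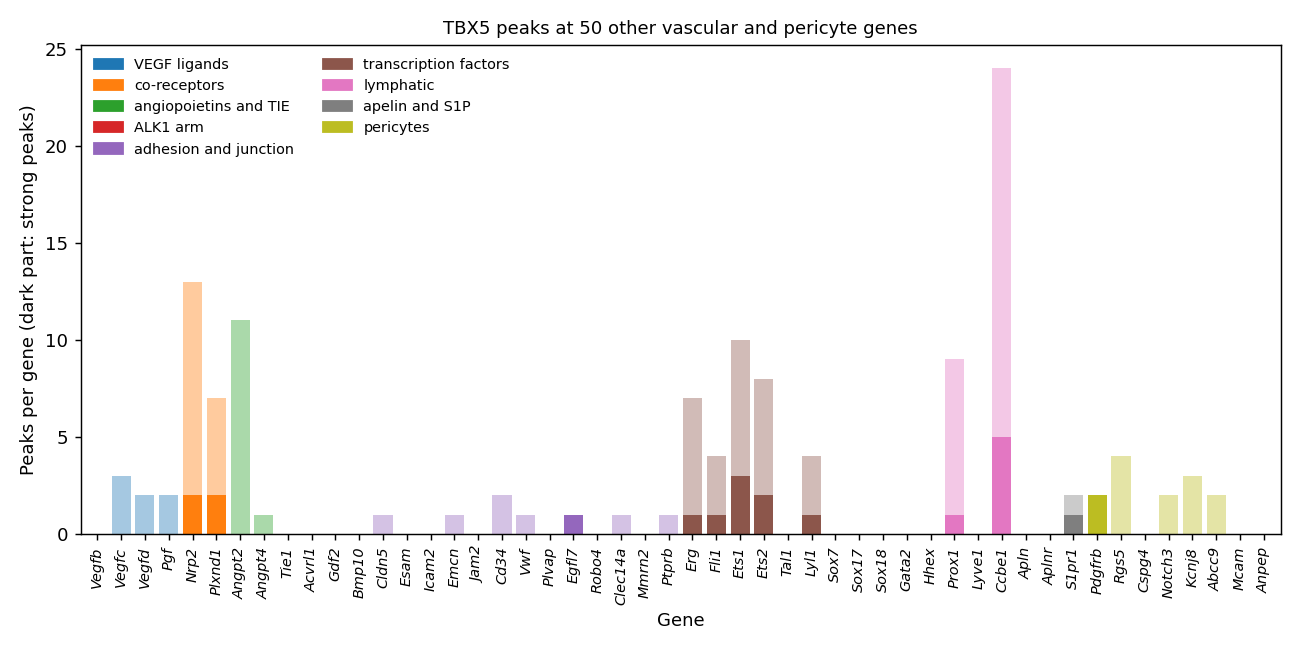
Peaks at each of 50 other vascular and pericyte genes, grouped by function in the colours of the legend, with strong peaks as the dark part of each bar. Ccbe1 has the most with 24, Nrp2 has 13 and Angpt2 11, and the 3 genes of the ALK1 arm, with short stretches of 11.8 to 37.6 kb, have 0.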

How the data were processed

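The authors deposited 1 peak list for the series, which has 2 TBX5 ChIP libraries and 1 input library. Per the submitters' processing notes, Bowtie2, SAMtools and MACS2 were used with build mm10. Their versions and settings, any pooling of libraries and the control are not given in the sources used. The list has no header, and its units were read from the layout and values. The fold enrichment, a ratio, the −log10 of a q-value, the score (the −log10 q times 10 as a whole number, to within 1) and the summit offset are as deposited by the authors. Fold and q depend on the depth of the libraries, which is unknown, so values were compared only within the list, and intervals cover counting error only.

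Genes came from the RefSeq table of GRCm38.p6, the assembly of mm10. Protein-coding genes numbered 21631 on the list's 20 chromosomes. The table gives no exons, so introns were not told from exons. Starts are 1-based. Ties in −log10 q were ranked in list order. A summit inside a gene was given to that gene, and any summit also to the gene with the nearest end within 100 kb. The 10 genes and the list of 50 others were chosen with earlier results of these data known. All 60 matched by symbol. Named were all 10 genes and, in each group of the 50, the 2 with the strongest peaks and any gene counted in a group of 5 or fewer, Egfl7 being the only one of its group with a strong peak. The other genes of the transcription factor group were named after their values were seen. Densities carry exact Poisson and shares exact Clopper-Pearson intervals. Alternatives changed the distance limit, the assignment, the competing genes or the threshold. The assignment was checked on simulated positions against a plain search. Tools were Python 3.11.15, pandas 2.3.3, numpy 2.4.6, scipy 1.17.1 and matplotlib 3.10.9.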

Additional observations from a re-analysis of the deposited data

How the results depend on the processing

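The values rest on the assignment and on the threshold, and 37 of 54 values under 9 alternatives stayed within 1.5 times the reported count or within the interval of the median fold (5.49 to 8.01). The total of 41 peaks became 27 with a limit of 10 kb, 63 with a limit of 1 Mb, 26 with gene bodies alone, 24 in the upper 14190 peaks by −log10 q and 9 at 10-fold or more. The 5 strong peaks became 3 at 10 kb, 11 at 1 Mb, 3 with gene bodies alone and 2 when strong meant the 1000 highest. The 5 genes with a strong peak became 3 at 10 kb, 3 with gene bodies alone and 2 with the 1000 highest. The median fold of 6.81 became 8.83 among those 14190 and 12.3 at 10-fold or more, by construction. The ligand genes had 9 peaks in those 14190 and 5 at 10-fold or more, and the receptor genes 2 at 10-fold or more. With all annotated genes competing for peaks, 29 remained in number, with 0 at Cdh5 and 2 at Vegfa. With the nearest gene end alone, Angpt1 had 11. No replicate could be left out, and no paired analysis was possible because the list holds no value per library.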

Other observations

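Of the 41 peaks, 20 shared their exact fold and −log10 q with at least 100 peaks of the list, themselves counted, and 2 had values found nowhere else in it. The pair of values 7.06-fold and −log10 q 9.95 occurred at Angpt1, Flt1 and Pecam1 alike, and at 131 peaks in all. The narrowest width in the list, 189 bp, was found in 7 of the 41. Ranks among such low peaks are therefore partly arbitrary, whereas the strong peaks of Vegfa, Angpt1, Flt1, Tek and Cdh5 shared their values with at most 33 peaks of the list.

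Of the 41 summits, 9 lay inside a noncoding gene or pseudogene of the RefSeq table. Besides those named above, a 6.13-fold Angpt1 peak lay inside the lncRNA gene Gm41313, and a 4.56-fold Nrp1 peak inside A930035F09Rik, 0.938 kb from an end of it. Of the 39 promoter windows that 31 of the other vascular genes have, a peak overlapped 9 (23.1%), none of these peaks strong, against 17.6% of all windows of protein-coding genes.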
